A study of Drosophila melanogaster with 6 samples.

Results

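The eye pigment genes described here are 10 genes of Drosophila melanogaster that make or carry the pigments of the compound eye: w, st, bw, v, cn, cd, se, pr, Pu and ry. They were chosen by name, as all probe sets whose single gene symbol in the platform annotation is one of these. The annotation used here gave 9 probe sets for 8 of the 10 genes, with 2 probe sets for bw, out of 18769 probe sets tested, which held 11982 named genes. The genes w (white) and v (vermilion) were not analysed here. RNA came from whole heads of males at day 5 of adult life, on Affymetrix arrays, in 3 groups of 2 biological replicates. Rescue flies were homozygous for the dme-miR-14 mutation and had the microRNA put back in the neurons that secrete insulin-like peptides (insulin-producing cells), mutant flies were homozygous for the same mutation, and control flies are labelled wild-type. All flies were raised under the same controlled growth and feeding conditions. The driver line, the clone or allele of the mutation, the number of flies pooled per array and the eye colour of the 3 genotypes are not given in the sources used here, and whether the replicates came from separate cultures is not stated beyond the word biological, so p-values measure the spread between these arrays.

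Fly eyes carry brown ommochromes and red pteridines. Ommochromes are made from tryptophan, by way of kynurenine, through the enzymes encoded by v, cn and cd. Pteridines are made from GTP, beginning with the enzyme encoded by Pu, and the red drosopterins need pr and se. The precursors are carried into pigment granules by ABC transporters made of White paired with Scarlet, the product of st, or with Brown, the product of bw. Pigment cells around each ommatidium hold both kinds of pigment, and photoreceptors hold ommochromes.

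Intensities are the authors' values on a linear scale, made comparable between arrays by quantile normalization, and differences between groups are on the log2 scale. The median intensity per array was between 59.25 and 60.2. Levels of different probe sets cannot be set against each other. A table of this kind gives no detection call, and 3 bacterial control probe sets (TrpnX), taken as a rough guide to the floor, read between 6.1 and 10.1 over the 6 arrays. In RNA from whole heads, fewer cells of a type and less RNA per cell cannot be told apart. RNA integrity was read from the actin and GAPDH control probe sets, as the mean log2 of their 5' over their 3' signal, which is the integrity ratio used from here on. This ratio was highest in the rescue group, at -1.26 and -1.06, against -1.81 and -1.35 for mutant heads and -1.46 and -2.34 for control heads.

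RNA of Pu, pr and se, which encode 3 of the enzymes on the way from GTP to drosopterin, was lower in rescue heads than in control heads. Of these calls only that of se held under all 15 other settings. Of 7 other measured genes of the pteridine pathway, 3 rose in rescue against control and none fell, where 8.91% of all genes rose and 5.70% fell. None of these 3 rises passed with the integrity ratio as a covariate. Pu was also lower in rescue than in mutant heads. No eye pigment probe set passed the threshold between mutant and control heads. In the order of the group means, se, pr and the bw probe set 1629540_a_at were lowest in rescue and highest in control. The means of st, cd and Pu were lowest in rescue and highest in mutant, but Pu differed little between mutant and control (0.087 ± 0.080). The probe set of cn lay at the floor, and bw and ry passed in no comparison.

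**Figure D1:**
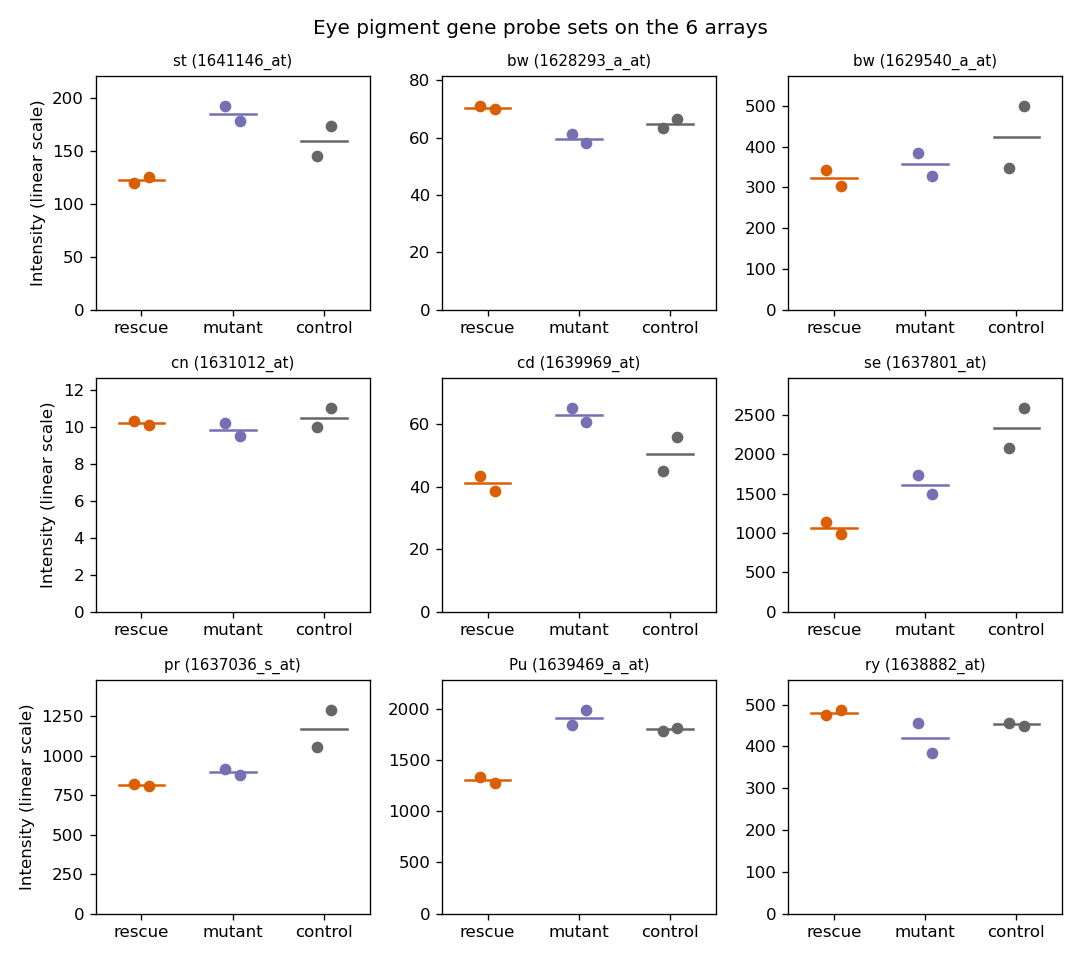
Intensity (linear scale, vertical axis starting at 0) of the 9 eye pigment gene probe sets on each array, with rescue, mutant and control from left to right. Points are the 2 arrays of a group, replicate 1 left of replicate 2, and the line is their mean. The rescue points of st, cd, se, pr and Pu lie below all mutant points, and for se and pr rescue is lowest and control highest with no overlap.

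The first enzyme of the pteridine pathway is GTP cyclohydrolase I, encoded by Pu (Punch), which also starts the synthesis of the tetrahydrobiopterin cofactor used in making dopamine and serotonin. Its intensity was 1328.4 and 1272.6 in rescue heads, 1836.2 and 1981 in mutant heads, and 1776.5 and 1814.5 in control heads. Both rescue arrays were below all 4 other arrays, and the mutant arrays were above the control arrays by a small margin. Pu fell by 0.55 ± 0.080 (SE) in rescue against mutant, with a 95% interval of -0.74 to -0.36 and an adjusted p of 0.0273 (limma, Benjamini-Hochberg over all probe sets). This is 1.47-fold lower, and 208 of the 18769 probe sets had a value at or below it. Against control it fell by 0.47 ± 0.080 (adjusted p = 0.0137), or 1.38-fold. Between mutant and control its difference was 0.087 ± 0.080 (adjusted p = 0.522), with an interval of -0.10 to 0.28. The call against mutant did not hold after leaving out any single array of mutant or rescue (adjusted p from 0.137 to 0.237, differences from -0.61 to -0.50). The call against control did not hold without rescue replicate 1 (adjusted p = 0.0909), without rescue replicate 2 (adjusted p = 0.122) or in the fit that has the integrity ratio as a covariate (-0.47, adjusted p = 0.0603).

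The gene pr (purple) encodes 6-pyruvoyltetrahydropterin synthase, the second enzyme of the pathway. Its probe set is of a type (_s_at) whose probes can match transcripts of more than one gene. It had 823.4 and 810.5 in rescue heads, 917.7 and 881.6 in mutant heads, and 1054 and 1287.7 in control heads. The 3 groups did not overlap, and the control arrays differed from each other by more than the rescue and mutant groups did. It fell by 0.51 ± 0.11 in rescue against control (interval -0.76 to -0.26, adjusted p = 0.0258), which is 1.43-fold. The differences were -0.14 ± 0.11 in rescue against mutant (adjusted p = 0.659) and -0.37 ± 0.11 in mutant against control (adjusted p = 0.0739). The call against control is the least stable of the 4 made for these probe sets. Some of the other settings are the same fit. For a given comparison, using only its groups equals leaving out either array of the third group. It was past the threshold under 7 of 15 other settings, with adjusted p from 0.00341 to 0.166. Without control replicate 2 the difference was -0.37 (adjusted p = 0.0522), and with the integrity ratio in the fit as a covariate the value was -0.31 (adjusted p = 0.16).

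The widest range among the 9 probe sets was that of se (sepia), with 2.62-fold between its highest and lowest array. It encodes pyrimidodiazepine synthase, a glutathione transferase of the omega class that makes a precursor of the drosopterins. Its intensity was 1141.8 and 987.6 in rescue heads, 1730.9 and 1489.8 in mutant heads, and 2081.8 and 2582.7 in control heads. All rescue values were below all mutant values, and these were below both control values. It fell by 1.13 ± 0.14 in rescue against control (interval -1.45 to -0.80, adjusted p = 0.00386), which is 2.18-fold, and 69 of the 18769 probe sets had a value at or below it. This was the one difference past the threshold under all 15 other settings, from -1.28 to -0.83, with adjusted p from 0.00152 to 0.0464. The differences were -0.60 ± 0.14 in rescue against mutant (interval -0.92 to -0.27, adjusted p = 0.106) and -0.53 ± 0.14 in mutant against control (interval -0.85 to -0.21, adjusted p = 0.0532). Neither passed, but se did pass under 4 of 15 other settings against mutant, some of them the same fit. In mutant against control it passed under 5 of 15. Without control replicate 1 the difference between mutant and control was -0.69 (adjusted p = 0.0145), and with the integrity ratio in the fit it was -0.40 (adjusted p = 0.0241).

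Xanthine dehydrogenase, which turns pterins into isoxanthopterin, is encoded by ry (rosy). It had 475.1 and 485.9 in rescue heads, 455.9 and 384.1 in mutant heads, and 455.3 and 449.9 in control heads. The rescue arrays were above the others, by less than the gap between the mutant arrays. Its differences were 0.20 ± 0.098 in rescue against mutant, 0.086 ± 0.098 in rescue against control and -0.11 ± 0.098 in mutant against control, with adjusted p of 0.455, 0.589 and 0.499. Over the 3 comparisons its intervals ran from -0.35 at the lowest to 0.43 at the highest.

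The 2 probe sets of bw, the partner of White in carrying pteridine precursors, did not move alike. The first, 1628293_a_at, read 70.9 and 69.9 in rescue heads, 61.2 and 58 in mutant heads, and 63.3 and 66.6 in control heads. Its rescue arrays were the highest, at 0.24 ± 0.078 over mutant (adjusted p = 0.235) and 0.12 ± 0.078 over control (adjusted p = 0.352). The second, 1629540_a_at, read 343.1 and 304.3 in rescue heads, 383.1 and 328.9 in mutant heads, and 348.2 and 498.4 in control heads. Here the control arrays differed from each other by more than any pair of group means, and the differences were -0.14 ± 0.17 in rescue against mutant (adjusted p = 0.81) and -0.37 ± 0.17 in rescue against control (adjusted p = 0.202). Between mutant and control the probe sets had -0.12 ± 0.078 and -0.23 ± 0.17 (adjusted p = 0.347 and 0.432). Whether the probe sets differ from each other was not tested.

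The partner of White for ommochrome precursors is encoded by st (scarlet). Its intensity was 120.1 and 125.9 in rescue heads, 192.2 and 178.7 in mutant heads, and 145.7 and 174 in control heads. The rescue arrays were the lowest and the mutant arrays the highest, with no overlap. The difference was -0.59 ± 0.10 in rescue against mutant (interval -0.84 to -0.34, adjusted p = 0.0527), just short of the threshold, and 179 of the 18769 probe sets had a value at or below it. It passed under 6 of 15 other settings. Among them were leaving out control replicate 1 or 2 and using only the groups compared, which are the same fit. The control arrays bear on rescue against mutant only by way of the pooled spread, and the control SD of st was 0.18 on the log2 scale, against 0.048 in rescue and 0.074 in mutant. Against control the difference was -0.37 ± 0.10 (adjusted p = 0.0638), and -0.19 with the integrity ratio as a covariate (adjusted p = 0.413). In mutant against control it was 0.22 ± 0.10 (adjusted p = 0.229).

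The gene cd (cardinal) encodes a heme peroxidase thought to join hydroxykynurenine molecules in the last step to the brown pigment. It was dim, with 43.5 and 38.5 in rescue heads, 65 and 60.6 in mutant heads, and 44.9 and 56 in control heads. Its arrays stood in the same order as those of st, rescue lowest and mutant highest. The difference was -0.62 ± 0.12 in rescue against mutant (limma, adjusted p = 0.0749). It passed under 4 of 15 other settings, some of them the same fit. In mutant against control it was 0.32 ± 0.12 (adjusted p = 0.151), and it passed there without control replicate 2 (0.48, adjusted p = 0.0423) and with the integrity ratio as a covariate (0.44, adjusted p = 0.0164). Against control the rescue difference was -0.29 ± 0.12 (adjusted p = 0.165), or -0.03 with that covariate.

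Kynurenine 3-monooxygenase, which makes hydroxykynurenine, is encoded by cn (cinnabar). It read 10.3 and 10.1 in rescue heads, 10.2 and 9.5 in mutant heads, and 10 and 11 in control heads. These values are close to those of the bacterial control probe sets, so this probe set gives no order between the groups, and its adjusted p was between 0.532 and 0.865 in the 3 comparisons.

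**Figure D2:**
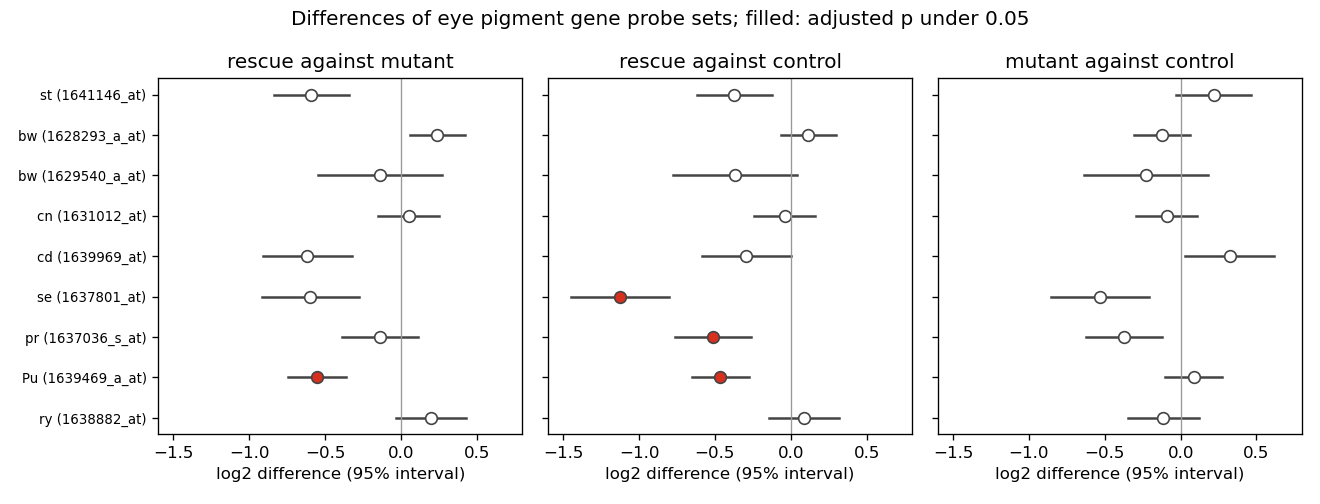
Log2 differences of the 9 eye pigment gene probe sets (rows) in rescue against mutant, rescue against control and mutant against control, with 95% intervals from the limma fit. Filled points have an adjusted p under 0.05: Pu in the first comparison, se, pr and Pu in the second, and none in the third.

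Counted over the 9 probe sets, 1 fell and none rose in rescue against mutant (limma), with 8 not past the threshold. In this comparison 0.709% of all probe sets were called lower and 0.693% higher. The groups did not overlap, with rescue lower, for 5 of the 9, against 28.1% of all probe sets, and with rescue higher for 2, against 21.0%. The median difference was -0.14 over the 9 and -0.02 over all 18769. Before adjustment, at p under 0.05, 4 were lower and 1 higher, against 13.5% of all probe sets in either direction. In rescue against control 3 of the 9 fell and none rose, where 5.25% of all probe sets were called lower and 6.83% higher. Of the 9, 6 were lower with no overlap, against 35.8% of all probe sets, and 2 were higher, against 23.8%. The median was -0.37 over the 9 and -0.05 over all, and 5 of the 9 were lower at an unadjusted p under 0.05, against 30.3% of all probe sets in either direction. The count of 3 past the adjusted threshold was 6 without control replicate 1, and 1 without rescue replicate 1, without rescue replicate 2 or with the integrity ratio as a covariate. The count of 1 past it against mutant was 4 without control replicate 1 or 2, and 0 after leaving out a single array of mutant or rescue. Both comparisons share the rescue arrays, so their counts are not independent.

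Between mutant and control, 0 of the 9 passed (limma), where 6.88% of all probe sets were called higher and 3.88% lower. Before adjustment there were 3 with p under 0.05, with se and pr lower and cd higher, against 27.1% of all probe sets. The groups did not overlap for 3 probe sets with mutant higher (st, cd and Pu), against 23.9% of all probe sets, and for 3 with mutant lower (the first bw probe set, se and pr), against 30.9%. The medians were -0.11 over the 9 and -0.03 over all. The count past the adjusted threshold was 3 without control replicate 1 (the second bw probe set, se and pr lower) and 1 without control replicate 2 (cd higher), so which probe sets passed depended on the control array. The study looked for transcripts that went up with the mutation and came down again in the rescue. No eye pigment probe set passed in both steps. The group means of st, cd and Pu followed that order, with the rescue means below the control means as well. For Pu the step from control to mutant was only 0.087 ± 0.080.

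Within each group the 2 arrays differed in RNA integrity and in most of these values. With 2 arrays per group, RNA integrity cannot be told apart from any other difference between them. A link between the integrity ratio and the values was not tested. Of the 9 probe sets, 8 were higher on control replicate 2 than on control replicate 1, 8 were higher on mutant replicate 1 than on mutant replicate 2, and 7 were higher on rescue replicate 1 than on rescue replicate 2. In each pair the first-named array had the lower integrity ratio. Over all probe sets the shares were 52.9%, 56% and 52.3%. With the ratio as a covariate, se against control was -0.83 ± 0.11 (adjusted p = 0.00982) and Pu against mutant was -0.56 ± 0.088 (adjusted p = 0.0347), so these calls were also made within that fit.

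Of 7 measured genes of the pteridine pathway outside the 10, none fell in any comparison. In rescue against control 3 rose and 4 did not pass: DhpD, the dihydropterin deaminase, by 0.47 ± 0.092 (adjusted p = 0.0209), Pcd, a pterin carbinolamine dehydratase that recycles the cofactor, by 0.32 ± 0.078 (adjusted p = 0.042), and Mocs1, which starts the molybdenum cofactor that xanthine dehydrogenase needs, by 0.31 ± 0.080 (adjusted p = 0.0491). DhpD read 753.5 and 737.6 in rescue heads, 655.9 and 612.9 in mutant heads, and 574.2 and 504.5 in control heads, with the groups apart. The median of the 7 was 0.31, against -0.03 over 11982 genes with 1 probe set each, of which 8.91% rose and 5.70% fell. In mutant against control only mal, which activates that cofactor, rose (0.39 ± 0.078, adjusted p = 0.0234), with a median of 0.11. In rescue against mutant, where 0.826% of genes rose and 0.910% fell, none of the 7 passed (limma), 3 had an unadjusted p under 0.05, and the median was 0.11. The mal call passed under 9 of 15 other settings, and not without mutant replicate 1 or 2 or without rescue replicate 1 or 2. Sptr, the sepiapterin reductase gene, cl (clot), which acts beside se, and Dhpr, a dihydropteridine reductase, passed in no comparison. Dhpr read 434.5 and 431 in rescue heads, 409.5 and 390 in mutant heads, and 571.6 and 465.7 in control heads. Both control arrays were above the 4 others, with differences of -0.25 ± 0.11 in rescue against control (adjusted p = 0.168) and -0.37 ± 0.11 in mutant against control (adjusted p = 0.0798). None of the 3 rises against control passed with the integrity ratio as a covariate, without either rescue array or without control replicate 2, and those of Pcd and Mocs1 passed under 5 of 15 other settings each.

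On the ommochrome side, KFase (kynurenine formamidase, which acts between v and cn) rose in mutant against control by 0.62 ± 0.074 (adjusted p = 0.00321), where 9.21% of genes rose and 4.13% fell. It had 497.5 and 496.8 in rescue heads, 529.9 and 541.7 in mutant heads, and 342 and 355 in control heads. Rescue and mutant heads were both well above control heads, and KFase also rose in rescue against control (0.51 ± 0.074, adjusted p = 0.00745), a call that did not hold without rescue replicate 1 or 2. The mutant call held under all 15 other settings. The eye colour gene kar (karmoisin) was lower in rescue than in control without passing (-0.41 ± 0.11, adjusted p = 0.055). The list of pigment granule trafficking holds mostly genes of vesicle coats, tethers and related complexes, whose mutations often lighten the eye. It also holds pn (prune), an eye colour gene that makes neither a coat nor a tether. Of the 19 measured genes of this list, 2 rose in mutant against control (limma, adjusted p = 0.00972 and 0.0155). These were pn, by 0.47 ± 0.074, and Blos2, a subunit of the BLOC-1 complex, by 0.44 ± 0.079. In rescue against control pn rose by 0.60 and Blos2 by 0.41, and g (garnet), a subunit of the AP-3 coat, fell by 0.48 ± 0.089 (adjusted p = 0.018). None of the 19 passed in rescue against mutant (limma, 3 at an unadjusted p under 0.05), and their median was -0.08. The medians were 0.07 in mutant against control and 0.02 in rescue against control. The g call did not hold without control replicate 2, without either rescue array or with the covariate, neither mutant call held without mutant replicate 1 or 2, and in rescue against control neither pn nor Blos2 held without rescue replicate 2, nor Blos2 without rescue replicate 1 or with the covariate.

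**Figure D3:**
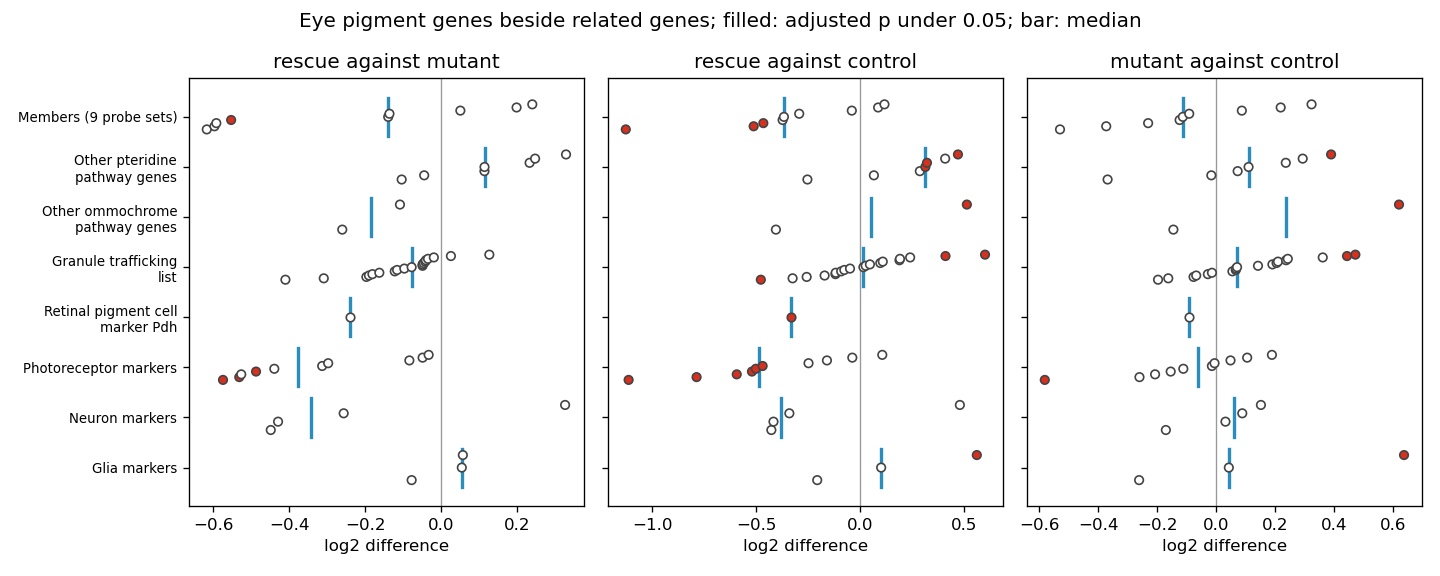
Log2 differences (horizontal axes, scaled separately) of the 9 eye pigment gene probe sets and of related gene lists, 1 probe set per gene, in 3 comparisons. Filled points have an adjusted p under 0.05 and the blue bar is the median of a row. In rescue against control the photoreceptor markers have a median of -0.49 and the other pteridine genes of 0.31.

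Markers of eye cells were also lower in rescue heads. The retinal pigment cell marker Pdh, a dehydrogenase of the visual pigment cycle, had 8335.2 and 8394 in rescue heads, 9871.7 and 9871.9 in mutant heads, and 10513 and 10536.3 in control heads. It fell by 0.33 ± 0.072 in rescue against control (adjusted p = 0.0297), and was -0.24 ± 0.072 in rescue against mutant (adjusted p = 0.205). The call passed under 7 of 15 other settings. Pdh was the only 1 of 3 listed retinal pigment and cone cell markers that was measured. Of 18 listed photoreceptor markers 10 were measured, and ninaE, norpA, ninaC and the other rhodopsin genes were among those not analysed. Of the 10, 6 fell in rescue against control (trp, trpl, inaD, chp, rdgA and rdgB), where 5.70% of all genes fell. In rescue against mutant 3 fell (inaD, trpl and chp), where 0.910% of all genes fell. The medians were -0.49 and -0.38. In mutant against control trpl alone changed (-0.58 ± 0.086), and not without mutant replicate 1 or 2, and the median was -0.06. The summed intensity of the 10 was 50462 and 51563 in rescue heads, 59808 and 59130 in mutant heads, and 63070 and 65506 in control heads. This sum is weighted towards the brightest probe sets, Arr1 and Arr2, and does not measure photoreceptor RNA as a whole. Not all photoreceptor markers passed, though in rescue against control 9 of the 10 differences were negative and 1 was positive. The arrestin genes Arr1 and Arr2 differed there by -0.16 and -0.04 (limma, adjusted p = 0.186 and 0.771), and Cpn by 0.11 (adjusted p = 0.406). Both rescue arrays of Arr1 were below all the other arrays. Arr2 had the highest intensity of all probe sets on control replicate 1 (16778.3). It lay near the top on every array, where quantile normalization can hide a difference. No marker was near the floor. None of the 3 falls against mutant held after leaving out a single array of mutant or rescue. Against control, 1 marker fell with the integrity ratio as a covariate (trpl), 1 without rescue replicate 1 and 3 without rescue replicate 2. Of 4 measured neuron markers and 3 glia markers none fell in any comparison. In rescue against control, where 5.70% of all genes fell, their medians were -0.38 and 0.10. The neuron markers elav, para and brp differed there by -0.42, -0.34 and -0.43, and nSyb by 0.48. Of these, brp and nSyb had an unadjusted p under 0.05 (limma). The glia marker moody rose by 0.56 in rescue against control (not without rescue replicate 1 or 2) and by 0.64 in mutant against control. What part the amount of eye tissue, or RNA integrity, has in the values of the pigment genes was not tested.

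The genes whose profile over the 6 arrays was most like each called eye pigment gene were found by the root mean square difference of centred log2 values, among 13647 probe sets with 1 symbol. For se the nearest was trpl, the ion channel of photoreceptors, at 0.079, with 4103.4 and 3911.4 in rescue heads, 5972.2 and 5613.7 in mutant heads, and 8260.6 and 9090.6 in control heads. The next were CG15196 at 0.091, which was close to the floor in rescue heads (17.2 and 15.7), and CG14636 at 0.13. For Pu the nearest were Lerp, a lysosomal sorting receptor, at 0.057, the photoreceptor scaffold gene inaD at 0.062, and Vajk3 at 0.062. For pr they were SNCF at 0.027, CG13995 at 0.028 and loh at 0.028. SNCF read between 15.9 and 24.7 and is close to the floor. The probe sets of trpl and Lerp, like that of pr, are of the _s_at type. These likenesses are descriptions over 6 arrays that share their normalization, depth of signal and RNA integrity.

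**Figure D4:**
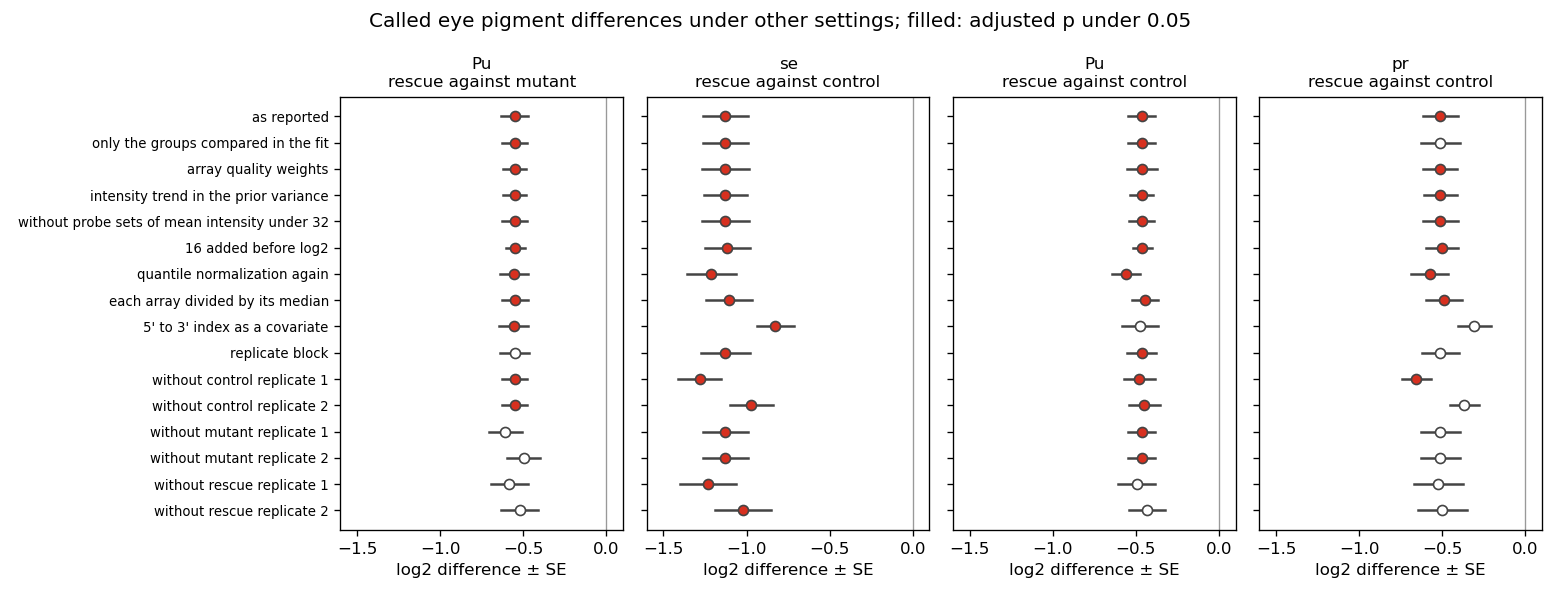
The 4 called differences of eye pigment genes (columns) as reported and under 15 other settings (rows), as log2 difference ± SE, filled where the adjusted p was under 0.05. The se difference in rescue against control was filled in every row, while Pu against mutant lost its call after leaving out a single array of mutant or rescue and pr passed in 7 of the 15.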

How the data were processed

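The deposited table held an intensity for each probe set on each array. Per the submitters' processing notes the authors used RMA, a procedure that corrects background, normalizes arrays by quantiles and summarises probes, with no version named. Values were linear, so log2 was taken here. Of 18952 probe sets, 183 controls were left out of the tests. Symbols came from the platform annotation, checked against the gene table of Release 6 plus ISO1 MT: 13647 tested probe sets had 1 symbol, 402 several and 4720 none. The test was limma 3.58.1, run in R 4.3.3 (lmFit, eBayes, all 6 arrays in 1 fit, two-sided, Benjamini-Hochberg over 18769 probe sets, threshold 0.05), with 3 residual degrees of freedom per probe set. A permutation test of 2 arrays against 2 cannot give a two-sided p under 0.333. On data simulated for mutant against control with 200 of 18769 probe sets changed, the share recovered was 41.8% at 1.5-fold, 79.1% at 2-fold and 98.5% at 4-fold, and 2.01% of calls were false. The number of arrays limits the precision of every value. Intervals use the degrees of freedom of the fit. The integrity ratio is the mean log2 ratio of 5' over 3' signal, for actin and GAPDH controls. Related gene lists use the brightest probe set per gene, and up to 8 genes past the threshold are named per list. The 3 nearest profiles are named for each called member. The members and lists were chosen with earlier results of these data known.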

Additional observations from a re-analysis of the deposited data

How the results depend on the processing

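The direction of every called eye pigment difference was the same under the 15 other settings, and no call reversed. Over 402 values of the 27 differences, 358 stayed on their side of the threshold, 28 newly passed and 16 no longer did. Some of these values repeat. For a given comparison, leaving out an array of the third group gives the same fit as using only the groups compared. Counts of eye pigment probe sets past the threshold varied more. In mutant against control, where the count was 0, it was 1 with an intensity trend in the prior variance or without probe sets of mean intensity under 32, 2 with quantile normalization again or with the integrity ratio as covariate, and 0 to 3 with 1 array left out. In rescue against mutant, where it was 1, it was 4 with only the groups compared in the fit or with array quality weights, 2 with the trend or the filter at 32, 0 with the replicate block, and 0 to 4 with 1 array left out. In rescue against control, where it was 3, it was 4 with quantile normalization again, 2 with only the groups compared in the fit or with the replicate block, 1 with the integrity ratio as covariate, and 1 to 6 with 1 array left out. Same-numbered replicates did not deviate together (correlations of -0.255, -0.188 and 0.00356 between pairs of groups), so the numbers were not taken to pair the arrays. With the replicate block the adjusted p of Pu in rescue against mutant was 0.0809. The alternatives for the related lists were chosen after seeing the data: of 40 calls, 8 held under every alternative run and none reversed. Without control replicate 1, replicate 2 is the only control array left and it has the lowest integrity ratio. The cause of these changes was not tested. A group left with 1 array is assumed to vary like the others. Adding 16 before log2 and dividing each array by its median left all 3 counts as they were.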

Other observations

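Several enzymes of purine synthesis, which supplies the GTP that pteridines are made from, differed between the groups. Prat2, an amidophosphoribosyltransferase of the first step, had 2884.6 and 2795.6 in rescue heads, 1637.5 and 1362.7 in mutant heads, and 4430 and 3850.3 in control heads. It fell by 1.47 ± 0.12 in mutant against control (limma, adjusted p = 0.000635) and rose by 0.93 ± 0.12 in rescue against mutant (adjusted p = 0.0151), with rescue still lower than control (-0.54 ± 0.12, adjusted p = 0.0277). The rise in the rescue did not hold after leaving out a single array of mutant or rescue. Adsl, the adenylosuccinate lyase gene, fell by 1.07 ± 0.16 in mutant against control (adjusted p = 0.00871), while Pfas, which acts in the middle of the pathway, rose by 0.98 ± 0.078 (adjusted p = 0.000646), and by 1.14 ± 0.078 in rescue against control. Pfas had 1574.5 and 1495.2 in rescue heads, 1385.7 and 1353.8 in mutant heads, and 676.7 and 713.1 in control heads. Of 9 measured genes of this list 1 rose and 2 fell in mutant against control, 1 rose in rescue against mutant, and 2 rose (Pfas and Adss) and 1 fell (Prat2) in rescue against control. Over all genes 9.21% rose and 4.13% fell in mutant against control. The shares were 0.826% and 0.910% in rescue against mutant, and 8.91% and 5.70% in rescue against control. They serve as background for the lists below as well. The call of Adss (adjusted p = 0.0489) passed under 5 of 15 other settings, and that of Prat2 in rescue against control did not hold without rescue replicate 1, without rescue replicate 2 or with the integrity ratio as a covariate.

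Relatives of the pigment genes by sequence family were also measured. Of 3 other omega glutathione transferases, GstO2 rose in mutant against control by 0.46 ± 0.077 and GstO3 by 0.73 ± 0.15 (adjusted p = 0.0123 and 0.0241), and they rose in rescue against control by 0.40 and 0.84, where se fell. None of these 4 calls held when 1 mutant array (for mutant against control) or 1 rescue array (for rescue against control) was left out. Of 12 other ABCG transporter genes, 1 fell in mutant against control (CG9664, -0.38 ± 0.077, adjusted p = 0.024), which did not pass under 7 of 15 other settings, and none passed in the other comparisons (limma, with 2 in rescue against mutant and 5 in rescue against control at an unadjusted p under 0.05). Of 5 fat body markers Lsp2 fell in mutant against control by 0.76 ± 0.081 and rose in rescue against mutant by 0.67 ± 0.081, and Apoltp fell in rescue against control by 0.36 ± 0.079. The yolk protein gene Yp1, also among the 5, read between 13.9 and 24 in these male heads, close to the floor. Of 5 hemocyte markers NimC1 rose in rescue against control by 2.56 ± 0.38, and of 3 muscle markers none passed, with TpnC4, at 8.6 to 10.4 over the 6 arrays, close to the floor. The rise of Lsp2 and the calls of Apoltp and NimC1 did not hold without rescue replicate 1 or 2. The rise of Lsp2 was also lost without mutant replicate 1 or 2, and the call of Apoltp passed under 7 of 15 other settings.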
